A study of Mus musculus with 3 samples.

Results

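The retinal pigment epithelium of this mouse eye series is the authors' cluster 1, and it held 231 of the 26008 cells that the authors kept, or 0.888%. A cell belongs to it when the cell tables of the authors give it cluster label 1, and its counts of unique molecular identifiers (UMIs) were then read from the count matrix of its library by its barcode. The cluster's name was checked against the 4 marker genes *Rpe65*, *Rgr*, *Ttr* and *Rdh5*.

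The study dissociated the iridocorneal angle and limbus, where aqueous humour drains from the eye, and sequenced 3 droplet libraries of single cells. The control group is 2 libraries of *Angpt1* flox/flox mice. The *Angpt1*ΔNC group is 1 library of *Angpt1* flox/flox;Wnt1-Cre+ mice, in which Cre removes the floxed *Angpt1* gene, for the vessel growth factor angiopoietin 1, from cells of the neural crest. All mice were 6 weeks old and of mixed strain, from a cross to ICR mice that gave albino litters, the labels name no treatment, and eyes of 2 to 3 animals were pooled for each library, which makes the library the replicate.

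The retinal pigment epithelium is a sheet of pigmented cells between the photoreceptors and the choroid. It turns all-trans retinal from spent visual pigment back into 11-cis retinal, digests the shed tips of photoreceptors, and moves ions, lactate and nutrients between retina and blood. It grows from the outer layer of the optic cup and not from the neural crest, the lineage that Wnt1-Cre marks, and at the edge of the retina it continues as the pigmented layer of the ciliary body.

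Cluster 1 held 133 cells with 2434987 UMIs in control replicate 1, 81 cells with 1116158 UMIs in control replicate 2 and 17 cells with 376170 UMIs in *Angpt1*ΔNC. In the same order the median cell had 17538, 10444 and 18150 UMIs, over ranges of 1148 to 87428, 1039 to 57550 and 3242 to 64089. These cells were deep for this series, in which the median kept cell had 6329.5, 6393.5 and 7444 UMIs in the same order of libraries. The deepest cell gave 3.59%, 5.16% and 17% of the UMIs of its library's cluster 1, so the sum of the *Angpt1*ΔNC cells leans on fewer cells. Libraries shared 25 barcodes between the controls, and 14 and 13 between *Angpt1*ΔNC and each control, among kept cells, and 0 of these barcodes belonged to cluster 1.

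Both control libraries go against their labels in sex, since the labels say that male and female animals were pooled. *Xist*, the RNA that coats the inactive X chromosome of females, had a UMI in 0 of the 133 and 0 of the 81 cluster 1 cells of the controls, counts that leave room for shares of up to 2.26% and 3.70%, and in 3 of 8943 and 2 of 10079 other kept cells of these libraries. In *Angpt1*ΔNC it had a UMI in 14 of 17 cluster 1 cells, and a Y-linked gene (*Ddx3y*, *Eif2s3y*, *Kdm5d* or *Uty*) in 0 of 17, which allows up to 17.6%. Y-linked genes were found in 65.4% and 61.7% of the cluster 1 cells of the controls. The other kept cells of *Angpt1*ΔNC held both kinds, with *Xist* in 58.6% and a Y-linked gene in 31.1% of 6755 cells. Cluster 1 therefore compares control cells without *Xist* with *Angpt1*ΔNC cells without Y-linked UMIs, and genotype, sex and library cannot be told apart in any genotype comparison below. The *Angpt1*ΔNC library cannot be left out of such a comparison, since no other library has its genotype.

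Levels below are means over the cells of a library of UMIs per 10,000 UMIs of the cell, and are always given in the order control replicate 1, control replicate 2 and *Angpt1*ΔNC. Each share has its exact (Clopper-Pearson) 95% confidence interval, a measure of counting error and not of the spread between animals. A share of 0 is given with the limit that 3 positive cells would set.

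The marker genes of the pigment epithelium were high in the cluster in every library, and less evenly so in *Angpt1*ΔNC. *Ttr* (ENSMUSG00000061808), which carries retinol and thyroid hormone, stood at 938, 836 and 375 UMIs per 10,000 in cluster 1 against 0.338, 0.249 and 0.199 in all other kept cells. *Rpe65* (ENSMUSG00000028174, chr3:159599175-159625321 of build GRCm38), the isomerase that makes 11-cis retinol, stood at 45.6, 43.4 and 6.97 against 0.0167, 0.0123 and 0.000484. *Rgr* (ENSMUSG00000021804, chr14:37034909-37048964), an opsin that binds all-trans retinal, stood at 78.1, 52.6 and 10.5 against 0.0286, 0.0168 and 0.000987. Each of these genes is thus far above the other cells in every library, with *Angpt1*ΔNC below both controls. *Rdh5* (ENSMUSG00000025350, chr10:128913593-128922888), the dehydrogenase of the last step of the visual cycle, followed the same order with 66.5, 61.0 and 25.8 in cluster 1 and 0.230, 0.204 and 0.138 elsewhere.

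Cell by cell, all 4 markers had a UMI in 114 of 133 cells (85.7%, interval 78.6 to 91.2%) and 59 of 81 cells (72.8%, interval 61.8 to 82.1%) of the controls and in 5 of 17 cells (29.4%, interval 10.3 to 56.0%) of *Angpt1*ΔNC. The *Angpt1*ΔNC interval lies below those of both controls. The gene most often missing was *Rpe65*, without a UMI in 18, 20 and 11 cells. *Ttr* was found in every control cell of the cluster, and fewer than 2 *Ttr* UMIs were found in 3 *Angpt1*ΔNC cells. Of all kept cells outside the cluster, 4, 6 and 0 held all 4 markers.

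As a description with no test, the 20 genes with the highest ratio of cluster 1 to all other kept cells in the controls were *Ttr*, *Rgr*, *Rpe65*, *Slc16a8*, *Rdh5*, *Rlbp1*, *Cox8b*, *Pon1*, *Trf*, *Mt3*, *Rrh*, *Ermn*, *Rd3l*, *Tmem27*, *Rsph10b*, *Ins2*, *Krt18*, *Col9a3*, *Lrat* and *Cspg5*. They came from 3662 genes detected in at least 25% of the cluster 1 cells of both controls, and 8 of them are among the 10 genes of a list of retinal pigment epithelium markers. The others include *Trf*, the iron carrier transferrin, at 106, 80.1 and 50.7, *Pon1*, a secreted paraoxonase, at 12.9, 11 and 2.93, and *Mt3*, a metal-binding metallothionein, at 18.2, 15.6 and 8.50. *Ins2*, an insulin gene, stood at 4.42, 4.40 and 0.982 in cluster 1 and at 0.00306, 0.00177 and 0.000810 in all other kept cells.

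Cluster 7, which the authors name ciliary epithelia, was taken for comparison, with 316, 107 and 139 cells. It also held RNA of other lists, with red cell genes summing to 169, 252 and 503 and mural genes to 109, 95.2 and 56.0. The part of such RNA in the comparisons below was not tested. The genes highest in cluster 1 relative to cluster 7 in the controls were *Ttr*, *Rgr*, *Rpe65*, *Trf*, *Slc16a8*, *Pon1*, *Lrat*, *Ins2*, *Rdh5* and *Rrh*. Those lowest relative to it were *Tagln*, *Myl9*, *Pcp4*, *Tagln2*, *Gbp2*, *Acta2*, *Myh11*, *Ccl2*, *Mylk* and *Plat*. At least 5 of these (*Tagln*, *Myl9*, *Acta2*, *Myh11* and *Mylk*) are genes of the contractile apparatus of smooth muscle. *Acta2*, for smooth muscle actin, stood at 2.04, 1.02 and 2.11 in cluster 1 and at 66.6, 54.9 and 32.5 in cluster 7.

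The visual cycle list of 16 genes was present with nearly all of its pigment epithelial steps. *Lrat*, which makes the retinyl esters that *Rpe65* uses, stood at 6.39, 4.41 and 4.04, and *Rlbp1*, which holds 11-cis retinoids in the cell, at 19.8, 18.3 and 6.63. *Stra6*, the receptor that takes up retinol from the blood, stood at 5.51, 4.5 and 3.67. These genes span carrier, receptor and enzyme of the pathway, and each has its level in *Angpt1*ΔNC below both controls. The photoreceptor members were near or at 0, with *Rdh8* at 0 UMIs in the 231 cells and *Rbp3* at 1 UMI. *Best1*, a chloride channel often used as a marker of this epithelium, had 1 UMI in 1 cell.

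Genes for transport showed the other known task of the epithelium. *Slc16a8*, the lactate carrier of its basal side, stood at 24.1, 23.6 and 12.9 in cluster 1 and at 0.00248, 0.0133 and 0.00225 in cluster 7. Its partner *Bsg*, which brings lactate carriers to the membrane, stood at 108, 88.3 and 64.0, and the potassium channel *Kcnj13* at 5.51, 7.40 and 4.99. The sodium pump subunit *Atp1b1* stood at 10.0, 7.94 and 8.29. Lactate carrier *Slc16a3*, used by other cell types, had 0 UMIs in the 231 cells.

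Of the genes for taking up and digesting photoreceptor tips, the lysosomal ones were plentiful. Cathepsin gene *Ctsd* stood at 17.7, 15.7 and 11 and *Psap*, for the saposins that help break down lipids, at 21.9, 17 and 13.6. The uptake receptor *Mertk* stood at 0.258, 0.205 and 0.303 and *Itgb5*, a subunit of the binding integrin, at 0.521, 0.435 and 0.466. The receptor genes *Axl* and *Cd36* had 1 and 0 UMIs in the cluster.

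Pigment genes were expressed, and some of them at lower levels than in the ciliary epithelia. *Tyr*, the enzyme that starts melanin synthesis, stood at 0.779, 0.727 and 1.81 in cluster 1 and at 1.72, 1.10 and 2.12 in cluster 7. *Pmel*, for the fibrils of the melanosome, stood at 8.96, 6.64 and 12.5 in cluster 1 and at 70.4, 61.2 and 39.8 in cluster 7. The whole list of 11 melanin genes summed to 47.9, 46.7 and 75.6 against 147, 135 and 138, so the libraries of each cluster lie apart from those of the other. *Oca2*, *Slc24a5*, *Gpr143* and *Rab27a* of that list went the other way and were higher in cluster 1 in every library. The animals were albino by the methods of the study, and a level of *Tyr* RNA does not show pigment.

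Among transcription factors, *Otx2*, which drives genes of the pigment epithelium, stood at 3.11, 2.33 and 3.23 in cluster 1 and at 0.207, 0.211 and 0.0607 in cluster 7. *Pax6*, a factor of the whole eye field, went the other way with 0.0678, 0.101 and 0.432 against 1.09, 1.17 and 1.19. *Mitf*, the melanocyte and pigment epithelium factor, stood at 0.931, 0.531 and 0.549 against 1.91, 1.43 and 1.33. The epithelial keratin *Krt18* stood at 20.4, 26.0 and 23.0 against 2.13, 2.45 and 2.47, with little spread among the libraries of either cluster.

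Secreted products made up a large share of the RNA. *Cst3*, a protease inhibitor, stood at 603, 468 and 471, and *Apoe*, a lipid carrier, at 145, 152 and 128. *Enpp2*, which makes lysophosphatidic acid, stood at 11.9, 8.85 and 3.55, and in cluster 7 at 0.215, 0.357 and 0.309. The 93 nuclear genes of oxidative phosphorylation (those whose symbols begin with Nduf, Uqcr, Sdha to Sdhd, Cox4 to Cox8 or Atp5) took 4.65%, 5.73% and 5.21% of UMIs in cluster 1. They took 2.09%, 2.02% and 2.05% in all other kept cells and 3.62%, 3.60% and 3.78% in cluster 7. The melanocytes of cluster 8 came nearer, at 4.34%, 4.33% and 4.36%. Cluster 1 was thus the highest of these in every library, least so in control replicate 1, which is a description and was not tested.

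The cluster held little of other cell types. Of 12 rod photoreceptor genes the sum was 3.29, 2.88 and 0.95, most of it *Rom1* at 2.86, 2.67 and 0.911. In cluster 7 the same list summed to 97.2, 27.2 and 0.146, so the rod RNA seen beside the ciliary epithelia of the controls was not seen in cluster 1. Cone genes summed to 0.451, 0.227 and 0.386, mostly *Gnat2*, with *Opn1mw* and *Arr3* at 0 UMIs. Retinal neuron and Muller glia genes summed to 7.50, 6.93 and 7.17, nearly all *Glul*, with *Snap25*, *Tubb3*, *Thy1*, *Grm6* and *Aqp4* at 0 UMIs.

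Ciliary epithelium genes summed to 1.5, 1.73 and 1.60, mostly *Gja1*, with *Optc*, *Zic1*, *Zic2*, *Crym* and *Col9a1* at 0 UMIs. Melanocyte genes summed to 24.4, 25.7 and 46.7, led by *Dct*, which the pigment epithelium also expresses, with *Sox10* at 0.111, 0.133 and 0.122 and *Mcoln3* at 0. The sums for stroma were 0.822, 0.790 and 0.757 (led by *Dcn*), and for mural cells 2.22, 1.30 and 2.27 (led by *Acta2*). These lists stayed far below the pigment epithelium list, which summed to 1191, 1050.5 and 449. Endothelial genes summed to 0.170, 0.264 and 0.662 (led by *Egfl7*, with *Pecam1* at 0), and surface epithelial genes to 0.560, 0.511 and 0.266 (led by *Krt14*, with *Trp63* at 0). Immune genes summed to 0.169, 0.299 and 1.75, led in *Angpt1*ΔNC by *C1qa* at 0.855, with *Ptprc* and *Cd3e* at 0. Schwann and other glia summed to 0.230, 0.184 and 0.289 (led by *Mbp* in control replicate 1), red cell genes to 0.181, 0.0424 and 0.153, and lens genes to 0.0122, 0.00938 and 0. Cell cycle genes summed to 0.0608, 0.113 and 0.136, with *Top2a* and *Birc5* at 0 UMIs, so next to no cycling RNA was found.

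The cells of the cluster were not alike in *Rpe65*. To describe this, the 177 cells with at least 5000 UMIs (102, 59 and 16) were split at 5 *Rpe65* UMIs per 10,000, a value chosen after the levels had been seen. Low cells were 13 of 102 (12.7%, interval 6.96 to 20.8%) and 17 of 59 (28.8%, interval 17.8 to 42.1%) in the controls and 12 of 16 (75%, interval 47.6 to 92.7%) in *Angpt1*ΔNC. Both kinds of cell were thus present in every library, and the low kind was the larger part in *Angpt1*ΔNC. Of the 12 low *Angpt1*ΔNC cells, 3 had fewer than 2 *Ttr* UMIs. Few cells lay near the split, with 6, 1 and 2 cells between 2 and 10, while 79, 41 and 2 cells lay above 20. The low cells were shallower, at a median of 13714, 11082 and 15205 UMIs against 20438, 16646 and 33157.5, and 10, 12 and 10 cells had no *Rpe65* UMI. The part of depth in the split was not tested.

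**Figure D1:**
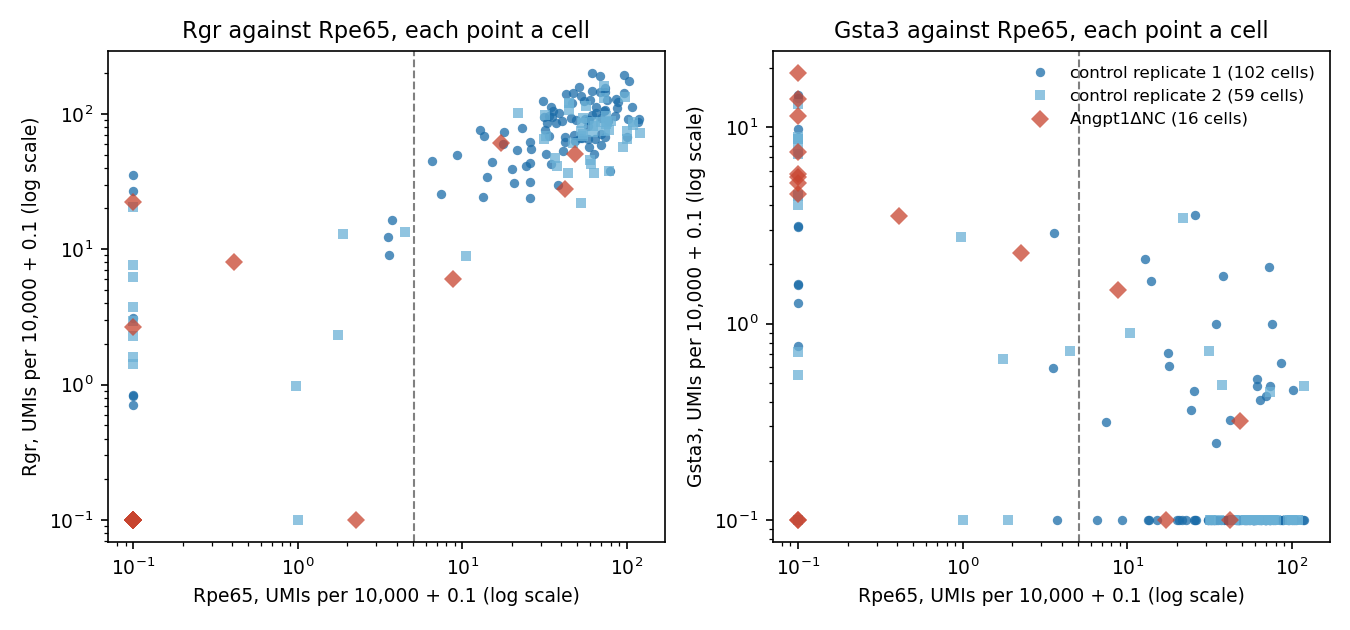
Levels of *Rgr* (left) and *Gsta3* (right) against *Rpe65* in the 177 cluster 1 cells with at least 5000 UMIs, in UMIs per 10,000 with 0.1 added, on log axes; each point is a cell, colour and shape give the library, and the dashed line is the split at 5. Most control cells lie at high *Rpe65* and high *Rgr*, a smaller number in each control lies at low *Rpe65* with higher *Gsta3*, and 12 of the 16 *Angpt1*ΔNC cells lie left of the line.

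The genes that went with *Rpe65* from cell to cell were found in each control library alone. *Rgr* stood at 8.08 and 4.41 in the low cells of the controls and at 88.0 and 77.6 in the high cells, and in *Angpt1*ΔNC at 2.72 in the low and 36.4 in the high cells. *Enpp2* stood at 0.969 and 1.12 in the low control cells and at 13.6 and 11.8 in the high ones. Over 102 and 59 cells, which share their library and differ in depth, the mean correlation of log levels with *Rpe65* was 0.89 for *Rgr*, 0.72 for *Pon1*, 0.71 for *Enpp2*, 0.66 for the GABA and taurine carrier *Slc6a13* and 0.60 for *Lrat*. These were the most positive of 1273 genes with a mean level above 1, apart from *Rom1* at 0.65, a tetraspanin known from photoreceptor discs. No cell of the high group in any library had *Rgr* below 5, against 8, 12 and 10 cells of the low group.

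Genes that went the other way were led by *Gsta3*, a glutathione transferase, at 4.57 and 4.22 in the low control cells and 0.195 and 0.140 in the high ones, with a mean correlation of -0.74. *Tmsb4x*, which binds actin monomers, had -0.63 and *Gpnmb*, a glycoprotein of melanosomes and lysosomes, -0.59. Some pigment genes belonged to this side too. *Pmel* stood at 21.3 and 14.8 in the low control cells and at 4.70 and 2.95 in the high ones, *Dct* at 28.2 and 31.5 against 15.8 and 16.1, and *Tyr* at 1.82 and 1.37 against 0.490 and 0.457. Of the rest of the melanin list, *Tyrp1* (-0.31), *Mlana* (-0.22), *Rab38* (-0.22) and *Slc45a2* (-0.13) had weaker negative mean correlations, and those of *Oca2*, *Slc24a5*, *Gpr143* and *Rab27a* lay between -0.08 and 0.04. The low cells of the controls thus had less *Rgr* and *Lrat* and more *Pmel*, *Dct* and *Tyr* than the high cells of the same library. Immediate early and heat shock genes leaned the same way by mean correlation, all 12 of that list below 0 in the controls (-0.33 to -0.05). *Hspa1a* stood at 5.12 and 3.38 in the low control cells and at 1.04 and 0.783 in the high ones, and *Jun* at 15.4 and 12 against 6.87 and 4.25. By level some members went the other way, such as *Fosb*, at 1.18 and 1.36 against 1.42 and 1.42. *Atf3* did so in control replicate 2, at 0.879 against 1.61. In *Angpt1*ΔNC the correlations of *Fos*, *Fosb*, *Jun*, *Jund* and *Egr1* were positive (0.31 to 0.37) and those of the other members negative. The part of dissociation in the split was not tested.

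Other genes of the epithelium followed this range less or not at all. *Krt18* stood at 20.4 and 24.9 in the low control cells and at 19.5 and 24.4 in the high ones. *Slc16a8* stood at 19.8 and 21.9 against 23.6 and 25.1. *Ins2* stood at 4.89 and 4.75 against 4.13 and 4.69, and was lower in *Angpt1*ΔNC in both groups, at 1.09 and 0.893. *Ttr* followed it in part, with a mean correlation of 0.53, and remained high in the low control cells, at 698 and 604 against 982 and 992, so low cells were still set apart from the rest of the eye by *Ttr*.

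The genotypes were compared to ask which genes of the pigment epithelium differ when angiopoietin 1 is deleted in the neural crest. The UMIs of the cluster were summed per library and tested with edgeR (the quasi-likelihood F-test, called at a p under 0.05 after Benjamini-Hochberg adjustment), 2 controls against 1 *Angpt1*ΔNC library, with 1 residual degree of freedom and on the assumption that the lone library varies like the controls. Of 8139 genes tested, 904 were called, of which 521 (6.4% of those tested) were higher and 383 (4.71%) lower in *Angpt1*ΔNC. Unadjusted p was under 0.05 for 1994 genes, and DESeq2, run on 14345 genes without the filter on low counts, called 156, of which 73 were higher and 83 lower. With edgeR on those 14345 genes 511 were higher and 470 lower, so the excess of higher genes depended on the setting. The median log2 change of all tested genes was -0.01. For each list below, the edgeR counts over all cells are to be set beside the shares of 6.4% higher and 4.71% lower. In cells with all 4 markers the share of genes called in either direction was 10.2%.

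**Figure D2:**
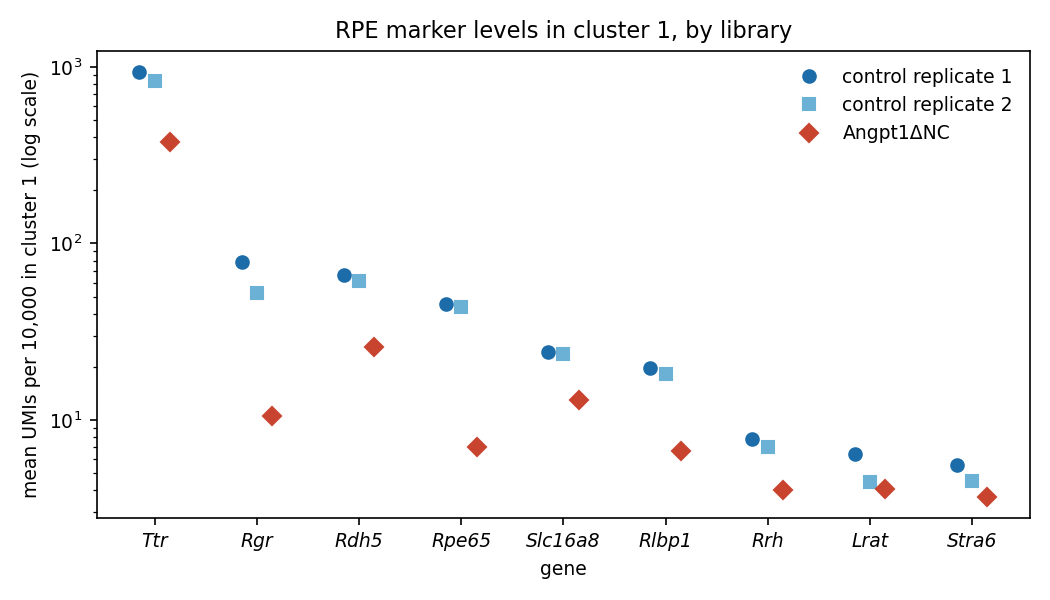
Mean level in cluster 1, in UMIs per 10,000 on a log axis, of the 9 tested genes of the retinal pigment epithelium marker list; each point is 1 library, with the controls as circle and square and *Angpt1*ΔNC as diamond. For *Rpe65* the points are at 45.6, 43.4 and 6.97, and in each gene *Angpt1*ΔNC lies below both controls.

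The genes that make the cluster what it is were lower in *Angpt1*ΔNC. Of the 10 pigment epithelium markers 9 were tested, and 8 fell and 0 rose, with a median log2 change of -1.40. *Rpe65* fell by 2.54 on the log2 scale (SE 0.31, edgeR adjusted p 9.1e-09) and *Rgr* by 2.63 (SE 0.32, adjusted p 9.7e-09), below both controls. In *Angpt1*ΔNC, 56.8% of the 389 *Rpe65* UMIs were in 1 cell, and 44.1% of the 528 *Rgr* UMIs were in 1 cell, so these sums rest on few cells. The cells were clustered on genes such as these, so their levels describe the members that each library gave to the cluster, and no change within a fixed kind of cell is read from them.

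For the same reason no change in abundance is read from the size of the cluster. Its share of kept cells was 1.47% (interval 1.23 to 1.73%) and 0.797% (interval 0.634 to 0.990%) in the controls and 0.251% (interval 0.146 to 0.402%) in *Angpt1*ΔNC. The defining genes differ between these groups of cells, and the controls differ from each other beyond counting error.

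Over the 16 visual cycle genes, 14 were tested, 9 fell and 0 rose (median log2 change -1.18). Beside the markers these included *Rdh10*, which oxidizes retinol, at 10.4, 8.23 and 4.60 (log2 change -1.20, SE 0.27, edgeR adjusted p 0.0014). *Abca4*, a flippase for retinal adducts, stood at 1.18, 0.872 and 0.973 and did not pass (adjusted p 0.79). With cells of fewer than 2 *Ttr* UMIs left out, an alternative chosen after seeing the data, 7 of 14 still fell, and *Lrat* no longer passed (adjusted p 0.18), as it did not with RLE size factors, with DESeq2 or in cells with all 4 markers.

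Of 16 tested genes of secreted proteins 7 fell, 2 rose and 7 did not pass (median -0.65). *Enpp2* fell by 2.09 (SE 0.29, edgeR adjusted p 2.6e-07), *Pon1* by 1.68 (SE 0.28, adjusted p 1.1e-05) and *Pltp*, which transfers phospholipids between lipoproteins, by 1.5 (SE 0.28, adjusted p 7.1e-05). *Ins2* fell by 2.44 (SE 0.32, adjusted p 5.2e-08). Other called members included *Igfbp2* and *Sfrp5* (lower), neither of which passed with DESeq2 (adjusted p 0.055 and 0.059), and *Efemp1* and *Serpinf1* (higher). *Igfbp2* had 75.2% of its *Angpt1*ΔNC UMIs in 1 cell, and its log2 change went from -0.98 over all cells to -2.77 with at least 2 *Ttr* UMIs (adjusted p 2.2e-13), so it fell further among the rest. *Serpinf1* did not pass without the 3 cells of fewer than 2 *Ttr* UMIs (adjusted p 0.52), and its log2 change turned from 1.78 to -1.15. *Efemp1*, for the matrix protein fibulin 3, stood at 0.294, 0.420 and 2.25 and rose by 3.31 (SE 0.28, adjusted p 8.2e-14). *Cst3* and *Apoe*, among the most abundant transcripts of the list, did not pass (adjusted p 0.44 and 0.34).

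In the transport list of 22 genes, 19 were tested, 2 rose and 5 fell (median -0.36). *Slc6a13* stood at 3.53, 3.53 and 0.464 and fell by 2.70 (SE 0.33, edgeR adjusted p 8.6e-09). The lactate carriers *Slc16a8* and *Slc16a1* fell by 1.02 (SE 0.28, adjusted p 0.0089) and by 1.09 (SE 0.28, adjusted p 0.0061), and *Slc6a20a* and *Slc22a8*, carriers of amino acids and organic anions, were also lower. With DESeq2 *Slc16a1*, *Slc6a20a* and *Slc22a8* did not pass, at log2 changes of -1.14, -1.07 and -1.13 (adjusted p 0.10, 0.12 and 0.080). *Trpm1*, a channel of melanocytes and bipolar cells, rose from 2.43 and 3.57 to 7.24 (log2 change 0.98, SE 0.24, adjusted p 0.0041), but not with DESeq2 (adjusted p 0.18), which called 3 genes of the list. The water channel *Aqp1* was the other higher gene, with 77.8% of its UMIs in 1 cell, and without the 3 cells of fewer than 2 *Ttr* UMIs it had too few to be tested. Over all genes tested 6.4% were higher and 4.71% lower, and 2 higher genes are too few to set against that. *Kcnj13*, *Atp1b1* and *Slc2a1* did not pass, nor did *Bsg* (adjusted p 0.052, but 0.015 with DESeq2).

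Pigment, uptake and factor genes were called in small numbers from short lists, too few to set against the 6.4% higher and 4.71% lower over all genes. Of 11 melanin genes 2 rose, 1 fell and 8 did not pass (median 0.02), and DESeq2 called 0. In cells with all 4 markers 0 of these genes rose and 3 fell with edgeR (median -0.63). *Dct* stood at 19.3, 21.3 and 40.9 (log2 change 0.83, SE 0.26, edgeR adjusted p 0.025) and *Tyr* rose by 1.06 (SE 0.27, adjusted p 0.0051). Neither passed without the 3 cells of fewer than 2 *Ttr* UMIs, at log2 changes of 0.72 and 0.42 (adjusted p 0.059 and 0.46). Of 13 tested uptake and lysosome genes 2 rose and 0 fell (median -0.16), namely *Gpnmb*, at 2.79, 2.49 and 9.86 (log2 change 1.78, SE 0.24, adjusted p 6.1e-08), and *Anxa2*, a membrane-binding annexin, at 1.22, 1.27 and 4.5 (1.66, SE 0.24, adjusted p 3.1e-07), which did not pass in cells with all 4 markers (0.66, adjusted p 0.15). In those cells 1 gene of this list rose and 2 fell. Of 7 tested transcription factors 2 rose and 0 fell (median 0.10), *Sox9* at 1.06, 0.873 and 3.24 (1.68, SE 0.23, adjusted p 2.1e-07) and *Pax6* (1.94, SE 0.54, adjusted p 0.011), for which DESeq2 gave no adjusted p. *Otx2* did not pass (adjusted p 0.68). Of 8 tested junction genes 1 fell, the integrin subunit *Itgb8* at 7.88, 4.95 and 3.31 (-1.16, SE 0.27, adjusted p 0.0020), with a median of -0.06.

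Immediate early and heat shock genes, which tissue dissociation is known to induce, were all higher with edgeR. All 12 of the list were tested and 12 rose, with a median log2 change of 1.83. DESeq2 called 7 of them, edgeR 9 of 11 tested in cells with all 4 markers, and 11 of 12 without the 3 cells of fewer than 2 *Ttr* UMIs, *Ier2* not (adjusted p 0.051). In *Angpt1*ΔNC 1 cell gave 61.7% of the UMIs of *Zfp36*, 61.5% of *Ier2*, 58.8% of *Hspa1b* and 44.4% of *Hspa1a*. *Fos* stood at 4.52, 4.18 and 16.7 (log2 change 1.44, SE 0.24, edgeR adjusted p 1.3e-05), *Fosb* at 1.46, 1.16 and 7.63 (2.42, SE 0.23, adjusted p 4.8e-12) and the chaperone *Hspa1a* at 1.19, 1.15 and 6.84 (1.88, SE 0.24, adjusted p 3.6e-08). The list summed to 21.3, 20.2 and 89.0 in cluster 1, but to 82.4, 72.1 and 56.1 in all other kept cells and to 113, 176 and 120 in cluster 7. The order of the libraries thus differed between these groups of cells. In cluster 8 the list summed to 39.9, 35.5 and 36.5. Median mitochondrial UMIs of cluster 1 were 5.55%, 6.63% and 7.52%, and the part of handling or RNA quality in these results was not tested.

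**Figure D3:**
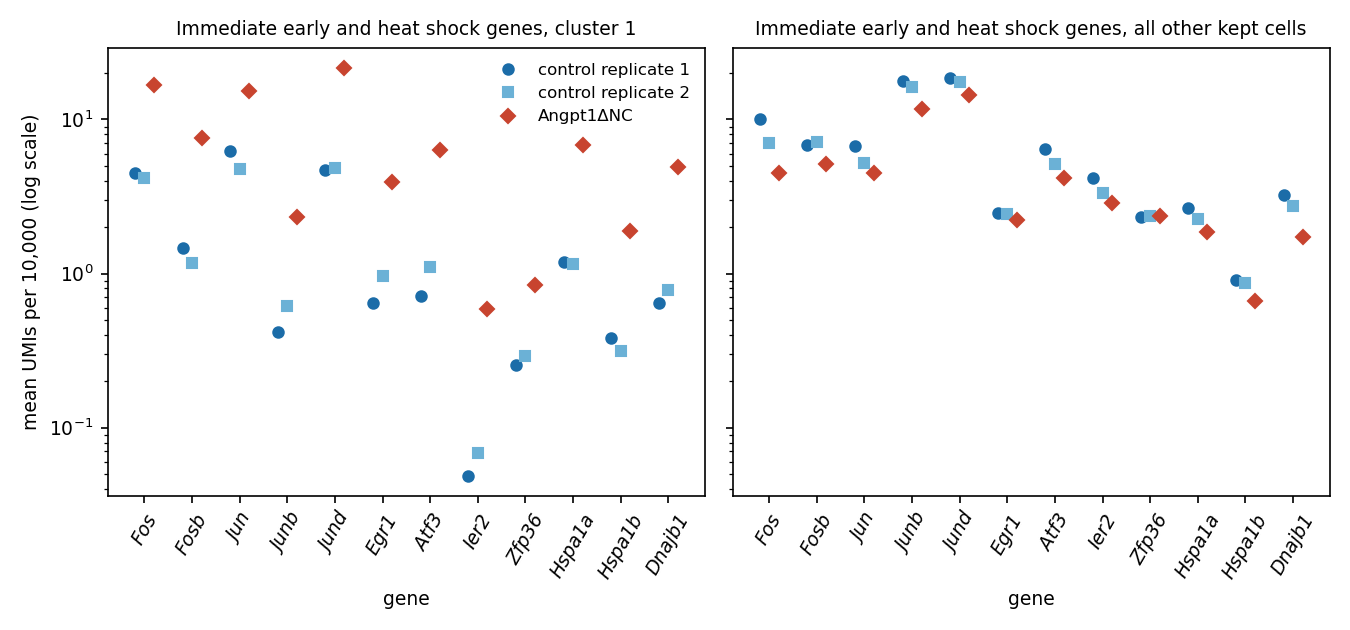
Mean levels, in UMIs per 10,000 on a log axis, of the 12 immediate early and heat shock genes in cluster 1 (left) and in all other kept cells (right); each point is 1 library. In cluster 1 the *Angpt1*ΔNC point is above both controls in each of the 12 genes, for *Fos* at 16.7 against 4.52 and 4.18, while in the other cells it is the lowest for each gene but *Zfp36*.

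For oxidative phosphorylation, the calls depended on the cells used. Of its 93 nuclear genes 87 were tested, 4 fell and 0 rose with edgeR (median -0.31), 22 had an unadjusted p under 0.05 and DESeq2 called 1, so lower calls were no more frequent than the 4.71% over all genes. In cells with all 4 markers 10 of 87 fell, against 367 of 7549 over all genes there. Of 13 mitochondrial genes 1 rose and 1 fell (median 0.01). The higher one was *mt-Nd3*, a subunit of complex I, at 2.88, 3.58 and 10.1 (log2 change 1.28, SE 0.24, edgeR adjusted p 0.00012). It was higher in the whole library, at 2.69, 3.83 and 7.52 in all other kept cells. Of the rod list only *Rom1* was tested, and it fell by 1.71 (SE 0.30, adjusted p 2.2e-05).

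The lists of other cells held few tested genes, too few to set against the 6.4% and 4.71% over all genes. The neuron and Muller glia list gave 1 higher call of 2 tested genes (*Dkk3*, a secreted Wnt modulator, at 0.691, 0.473 and 1.39), the melanocyte list 1 higher of 3 (*Dct*) and the stroma list 1 lower of 3 (*Col1a2*, at 0.180, 0.0372 and 0 UMIs per 10,000). DESeq2 called 0 genes of these 3 lists. With edgeR in cells with all 4 markers *Dkk3*, *Dct* and *Col1a2* did not pass (log2 change 0.96, 0.58 and -7.31). In those cells 1 gene of the melanocyte list and 1 of the stroma list were called lower. The cone (1 tested), ciliary (2), endothelial (2), mural (1), surface epithelial (2), immune (1), glial (1), red cell (1) and cell cycle (1) lists gave 0 calls with edgeR and 0 with DESeq2, and an unadjusted p under 0.05 for 1 gene each of the surface epithelial and immune lists. The lens list had no tested gene. Of the 5 sex-linked genes, 4 were tested, with *Xist* higher and *Ddx3y* and *Eif2s3y* lower in *Angpt1*ΔNC.

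The named genes are the 10 with the smallest adjusted p in each direction past a log2 change of 1 and outside both controls. Higher in *Angpt1*ΔNC were *Xist*, *Cxcl10*, *Serpina3n*, *Ptx3*, *Cxcl9*, *Serpinb1a*, *Sprr1a*, *Vcam1*, *Tnfrsf12a* and *Efemp1*. *Cxcl10* and *Cxcl9* are chemokine genes that interferons induce, and *Ptx3* is a soluble receptor of innate immunity, but for these and others most UMIs came from 1 cell. All 347 *Cxcl10* UMIs, all 111 *Cxcl9* UMIs and all 53 *Sprr1a* UMIs were in 1 of the 17 cells, and 94.4% of those of the acute-phase gene *Serpina3n*, 93.9% of those of the adhesion molecule *Vcam1*, 82.8% of those of *Ptx3* and 74.7% of those of *Serpinb1a* were in 1 cell. Such calls rest on 1 cell alone or nearly so. Of all 521 higher genes, 49 had more *Angpt1*ΔNC UMIs in 1 cell than in the others together. *Tnfrsf12a*, the receptor of the cytokine TWEAK, was found in 12 of 17 cells and stood at 0.539, 0.736 and 3.88 (log2 change 3.09, SE 0.25, edgeR adjusted p 8.8e-15).

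Lower in *Angpt1*ΔNC were the predicted genes *Gm10260*, *Gm13305* and *Gm42418*, and *Lars2*, *Bcat1*, *Slc6a13*, *Rpe65*, *Rgr*, *Ins2* and *Acot1*. The predicted genes were lower in the whole library, since in all other kept cells *Gm10260* stood at 3.90, 5.00 and 0.0186, *Gm13305* at 2.59, 2.72 and 0.692 and *Gm42418* at 30.7, 26.3 and 10.9. Their lower counts were thus not limited to the pigment epithelium, and whether reads of near-identical copies were assigned differently was not tested. *Bcat1*, which starts the breakdown of branched amino acids, stood at 1.29, 1.41 and 0.0979 and fell by 4.27 (SE 0.51, edgeR adjusted p 5.3e-09), and *Acot1*, a fatty acyl-CoA thioesterase, at 2.89, 2.06 and 0.407 (-2.58, SE 0.34, adjusted p 6.1e-08). In the other kept cells *Bcat1* stood at 0.120, 0.130 and 0.0959. Of the higher genes, *Tnfrsf12a* stood there at 8.78, 8.21 and 8.42, above its level in cluster 1 in every library.

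Cells of the same *Rpe65* range were compared as an alternative chosen after seeing the data. Between low cells alone, with at least 2 *Ttr* UMIs, 108 of 3383 tested genes (3.19%) passed, and 0 of 9 pigment epithelium markers and 0 of 13 visual cycle genes were among them with edgeR, while 5 of each had an unadjusted p under 0.05. The median log2 change was -0.78 for the markers and -0.49 for the visual cycle, against -0.02 for all genes tested there, smaller than the -1.40 and -1.18 over all cells. *Rpe65* itself had an adjusted p of 0.33 there and *Rgr* of 0.19. *Enpp2* had a log2 change of 0.22 (adjusted p 0.86), and *Efemp1* of 0.89 (adjusted p 0.39). The split uses *Rpe65* itself and few cells remain, so a gene that does not pass here may still differ.

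Some genes passed also among the low cells. *Ins2* fell by 1.85 there (edgeR adjusted p 0.0014), *Slc6a13* by 2.45 (adjusted p 0.019), *Pon1* by 5.61 (adjusted p 6.6e-14) and *Acot1* by 3.54 (adjusted p 2.4e-05), while *Sox9* rose by 1.77 (adjusted p 0.00022) and *Gpnmb* by 1.11 (adjusted p 0.035). Of the 12 immediate early and heat shock genes 7 rose there too. Within cells with all 4 markers 770 of 7549 genes (10.2%) passed, and within cells with at least 2 *Ttr* UMIs 754 of 8262 (9.13%). The fit of all cells and these 3 subsets share libraries and cells, so they are not independent. In all of them 62 genes were called higher and 27 lower. Among the higher ones, named after their values were seen, are *Lmna* (log2 change 2.70 over all cells, edgeR adjusted p 6.1e-13), for the nuclear lamina, *Klf4* (2.38, adjusted p 2.5e-10) and the stress-response factors *Atf4* (1.5, adjusted p 2.5e-06) and *Ddit3* (1.87, adjusted p 6.2e-07). Among the lower ones are *Lpl*, for lipoprotein lipase (-1.81, adjusted p 3.1e-05), *Plin2*, for a coat protein of lipid droplets (-1.62, adjusted p 0.00037, not passing with DESeq2), and *Ech1*, for an enzyme of fatty acid oxidation (-2.38, adjusted p 6.4e-08). *Lpl* and *Ech1* were lower in all other kept cells as well, at 0.800, 0.640 and 0.127 and at 1.05, 1.08 and 0.408. *Lmna* had 0, 1, 4, 6 and 36 UMIs in the 5 *Angpt1*ΔNC cells with all 4 markers, so its call in those cells leans on 1 cell. It stood at 1.03, 1.08 and 5.63 in cluster 1, below its 21.7, 21.5 and 21.2 in all other kept cells.

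Whether the genotype difference differed between the pigment epithelium and the ciliary epithelia was tested as an interaction in edgeR, with the library as a block. Of 10374 genes 437 (4.21%) passed, 296 with a more positive and 141 with a more negative difference in cluster 1, and 1625 had an unadjusted p under 0.05. DESeq2, run on 17233 genes without the filter on low counts, called 73. With edgeR on those 17233 genes 320 were more positive and 261 more negative, so the balance depended on that filter. All 12 immediate early and heat shock genes were among the more positive ones, *Junb* and *Ier2* not when at least 2 *Ttr* UMIs were asked for (adjusted p 0.17 and 0.12), and *Hspb1*, a small heat shock protein, stood at 0.337, 0.550 and 5.12 in cluster 1 and at 10.4, 16.0 and 5.50 in cluster 7 (log2 interaction 3.78, SE 0.31, adjusted p 7.6e-09). *Mt3*, at 18.2, 15.6 and 8.50 in cluster 1 and 0.978, 0.568 and 3.68 in cluster 7, gave -3.71 (SE 0.35, adjusted p 7.7e-08). *Rdh5* was at 1.43, 1.56 and 1.96 in cluster 7 and gave -2.04 (SE 0.28, adjusted p 3.1e-05), and *Enpp2* gave -3.10 (SE 0.42, adjusted p 3.1e-05). For *Mt3* the larger part lay in cluster 7, with a log2 change of 2.27 there and -1.28 in cluster 1. By this fit, which has 1 residual degree of freedom, the genotype differences of these genes were thus not the same in the 2 clusters of these libraries. *Rdh5* is a marker of cluster 1, and *Enpp2* went with *Rpe65* from cell to cell. Their values describe the members that each library gave to the cluster, and no change within a fixed kind of cell is read from them.

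*Angpt1* itself (ENSMUSG00000022309, chr15:42424723-42676977 of build GRCm38) was scarce in the cluster. It had a UMI in 5 of 133 cells (3.76%, interval 1.23 to 8.55%) and 2 of 81 cells (2.47%, interval 0.300 to 8.64%) of the controls and in 5 of 17 cells (29.4%, interval 10.3 to 56.0%) of *Angpt1*ΔNC. The positive *Angpt1*ΔNC cells were deep (median 32823 UMIs). Among the 102, 59 and 16 cells with at least 5000 UMIs, thinned to 5000 UMIs each, the expected shares were 1.33%, 0.309% and 8.09%. Cells of lower depth are left out of these shares, so they do not cover the same cells as the shares above. In the surface epithelium of clusters 2 to 5, which should lack the gene, the share was 0.262%, 0.520% and 0 of 1172 cells, which allows up to 0.256%, and its median cell had 18350, 15486 and 16279.5 UMIs. All 3 shares of cluster 1 lie above these, although the interval of control replicate 2 reaches below its surface value. In cluster 7 the share was 5.06%, 0.935% and 2.88%, which in control replicate 1 is above that of cluster 1. In the *Angpt1*ΔNC cells of the cluster, 7 UMIs in all were found, up to 3 in a cell, and 2 of the 5 cells were among those with fewer than 2 *Ttr* UMIs. A UMI at the 3′ end of the transcript does not show whether the floxed exon was present. None of the 7 genes of the angiopoietin list passed the filter on low counts, and its receptor gene *Tek* had 0 UMIs in the 231 cells. Without that filter *Angpt1* was higher in *Angpt1*ΔNC with edgeR (log2 change 2.83, SE 0.93, adjusted p 0.037), while DESeq2 gave an unadjusted p of 0.090 and no adjusted one.

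The promoters of *Rpe65* and *Rgr*, the markers that went together from cell to cell and between the libraries, are shown because both hold the core that OTX factors bind. RefSeq promoters (build GRCm38.p6, 300 bases around the start of each gene) were searched on both strands for TAATCC, the OTX core, and for CACGTG and TCATGTG, the E-box and M-box that the MITF family binds. Of 32851 promoters of 300 bases, 7.06% held TAATCC, 7.15% CACGTG and 3.77% TCATGTG. Of the 10 pigment epithelium markers 9 were matched, with 12 promoters, and TAATCC was in those of *Rpe65*, *Rgr* and *Best1*, while the other motifs were in 0 of 12. *Ttr* had no entry. Below, the motif is in capitals, for *Rpe65* (chr3:159598931-159599230, + strand) as its reverse complement and for *Rgr* (chr14:37048965-37049264, - strand) as written. A match is a description and does not show binding.
Rpe65: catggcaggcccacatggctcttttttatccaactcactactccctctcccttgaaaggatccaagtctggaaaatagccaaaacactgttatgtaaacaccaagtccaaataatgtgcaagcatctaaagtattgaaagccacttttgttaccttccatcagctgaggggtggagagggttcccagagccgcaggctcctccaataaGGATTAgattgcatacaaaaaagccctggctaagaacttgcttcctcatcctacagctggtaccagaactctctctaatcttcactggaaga
Rgr: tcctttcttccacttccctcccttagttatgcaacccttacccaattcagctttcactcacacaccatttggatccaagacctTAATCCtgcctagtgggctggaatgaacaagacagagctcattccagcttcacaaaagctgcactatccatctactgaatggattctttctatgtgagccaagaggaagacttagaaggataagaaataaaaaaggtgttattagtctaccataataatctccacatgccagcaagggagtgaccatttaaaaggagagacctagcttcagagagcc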

How the data were processed

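The authors deposited UMI counts of 31053 genes for each called barcode of 3 libraries, made with Cell Ranger on mm10. The sample records give its version as 2.1.1, the paper as 3 and the matrix headers as 3.0.2. They kept cells with at least 200 genes, at least 1000 UMIs and at most 10% mitochondrial UMIs, removed doublets with scDblFinder, and clustered with Seurat 3.1.3. Their 2 cell tables give cluster labels, used here, and natural log values, which the authors deposited for 3467 genes and which were not used. The members and the lists of genes were chosen with earlier results of these data known.

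Levels, shares and exact 95% intervals were computed with Python 3.11.15, numpy 2.4.6, scipy 1.17.1 and pandas 2.3.3, and figures with matplotlib 3.10.9. Counts summed per library were tested with edgeR 4.0.16 (TMM factors, filterByExpr, quasi-likelihood F-test, Benjamini-Hochberg) in R 4.3.3, and with DESeq2 1.42.0 as an alternative. The standard error (SE) of a log2 change is its size over the square root of F. The genes named are the 20 with the highest ratio to other cells and 10 at each end against cluster 7 (0.1 added to levels, at least 25% of cells with a UMI, for the lower end those of cluster 7), 10 in each direction between genotypes and 5 in each direction of the interaction. In the GENCODE M21 annotation, 30934 of the 31053 identifiers were found. Alternatives were RLE size factors, all genes with a UMI, deeper cells, cells with all markers, summed UMIs and leaving out each control. Some members of the gene lists are part of the counts and sums but are not reported here by name.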

Additional observations from a re-analysis of the deposited data

Results flagged for a closer look

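The difference between genotypes was not the same in cluster 1 and in the ciliary epithelia of cluster 7 for 437 genes, by the edgeR test of the interaction with library as a block, and each gene below was singled out by that test. More positive in cluster 1 were the chemokine gene *Cxcl10* (log2 interaction 9.88), *Sprr1a* (7.34), *Serpina3n* (5.97) and *Ptx3* (4.99), and most of the *Angpt1*ΔNC UMIs of these 4 genes in cluster 1 were in 1 cell each, with fewer than 2 *Ttr* UMIs. *Hspb1* had 3.78, with its largest cell at 33.6% of the UMIs. More negative in cluster 1 were *Mt3* (-3.71), *Trnp1* (-6.01), *Enpp2* (-3.10), *Rdh5* (-2.04) and *Sfn* (-4.03). *Sfn* stood at 0.254, 0.321 and 0.116 UMIs per 10,000 in cluster 1 and at 1.13, 0.736 and 7.65 in cluster 7 of control replicate 1, control replicate 2 and *Angpt1*ΔNC, so its difference lies in the ciliary epithelia, as does the larger part of that of *Mt3* (log2 change 2.27 there and -1.28 in cluster 1). *Trnp1* stood at 0.804, 0.549 and 0.0738 in cluster 1. The causes were not tested.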

How the results depend on the processing

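No paired analysis was possible because each library pools different mice. The 904 genes called between genotypes became 156 with DESeq2, and the 437 of the interaction became 73. DESeq2 was run without the filter on low counts, so both the tool and the genes tested differed. Among low *Rpe65* cells with at least 2 *Ttr* UMIs, where fewer genes were tested, the 904 became 108. With at least 2 *Ttr* UMIs the 437 became 212. In that last setting the interactions of *Cxcl10* (-3.28), *Sprr1a* (-3.11), *Serpina3n* (-1.24) and *Ptx3* (-7.03) reversed without passing (adjusted p 0.815, 0.828, 0.779 and 0.172), since the cells that held most of their UMIs are left out. Other settings of these 2 totals stayed within 1.5 times, but the 141 more negative interactions became 261 without the filter. Settings by *Ttr* UMIs or low *Rpe65* were chosen after seeing the data.

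The share of cluster 1 in *Angpt1*ΔNC over the mean of the controls, 0.222, was 0.0761 for kept cells and 0.113 for called barcodes with all 4 markers, and 0.171 to 0.315 without either control. The same ratio of levels was 0.157 for *Rpe65*, 0.161 for *Rgr*, 0.422 for *Ttr*, 0.405 for *Rdh5* and 0.308 for the rod list. With all 4 markers it was 0.413, 0.380, 0.564, 0.576 and 0.464. With at least 2 *Ttr* UMIs it was 0.190 (*Rpe65*), 0.513 (*Ttr*), 0.478 (*Rdh5*) and 0.374 (rods), with summed UMIs 0.208, 0.459, 0.434 and 0.369 in the same order, and 0.165 for *Rpe65* in cells of at least 5000 UMIs. Without either control it was 0.153 to 0.160 (*Rpe65*), 0.134 to 0.200 (*Rgr*), 0.400 to 0.448 (*Ttr*), 0.388 to 0.423 (*Rdh5*) and 0.289 to 0.329 (rods). The difference of 26.3 percentage points in cells with an *Angpt1* UMI was 5.88 for at least 2 UMIs, 38.2 with all 4 markers, 18.3 with at least 2 *Ttr* UMIs and 25.7 to 26.9 without either control. It was 7.27 among only the cells of at least 5000 UMIs, thinned to 5000 UMIs. Of the tested values of 78 named genes in other settings, 437 kept direction and side of the threshold, 53 no longer passed (15 with DESeq2, 22 in low *Rpe65* cells, 10 with all 4 markers, 5 with at least 2 *Ttr* UMIs, 1 with RLE), 6 newly passed (4 of them *Bsg*, 2 *Stra6*) and 14 reversed. Reversed among low *Rpe65* cells, without passing, were *Lrat* (0.28), *Stra6* (0.040), *Abca4* (0.26), *Enpp2* (0.22), *Cst3* (0.28), *Slc6a20a* (0.39), *Kcnj13* (0.20), *Slc2a1* (0.10), *Tyr* (-0.30) and *Otx2* (0.21). *Serpinf1* reversed with at least 2 *Ttr* UMIs (-1.15) and with all 4 markers (-0.45), as did *Otx2* (0.014 and 0.026). Of the log2 ratios without either control, which have no test, 152 kept direction and 4 did not, with ranges of -0.050 to 0.36 (*Abca4*), -0.30 to 0.0057 (*Cst3*), -0.027 to 0.085 (*Atp1b1*) and -0.074 to 0.25 (*Otx2*), 4 genes that had not passed. Of the interaction values of 10 genes, 34 kept direction and side. Beyond these constructions the cause was not tested. With 17 *Angpt1*ΔNC cells, an expected 3 UMIs come to a level of 0.0798 per 10,000, and a gene of a lower level can be missed.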

Other observations

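Much *Ttr* was also found in called barcodes that the authors did not keep. Above 100 *Ttr* UMIs per 10,000 there were 130 cells in cluster 1, 2 other kept cells and 88 barcodes not kept in control replicate 1, against 78, 1 and 102 in control replicate 2 and 13, 0 and 15 in *Angpt1*ΔNC. Of the barcodes not kept, 34, 49 and 12 had more than 10% mitochondrial UMIs, and 35, 35 and 1 passed the stated filter. These last had a median of 22488, 21342 and 22606 UMIs, with *Rpe65* at 15.8, 18.5 and 0 and the stromal gene *Dcn* at 8.96, 12.5 and 70.3 UMIs per 10,000. After the stated filter the authors removed predicted doublets, so the 35, 35 and 1 barcodes may each hold more than 1 cell. With all barcodes counted, kept or not, those of this *Ttr* level were 1.95%, 1.43% and 0.325% of those called.

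The 3 *Angpt1*ΔNC cells of cluster 1 with fewer than 2 *Ttr* UMIs differed from the other 14 in most lists. Beside *Ttr*, by which they were chosen, *Rpe65* and *Rgr* had 0 UMIs in them, while *Rdh5* had 13 and 9 UMIs in 2 of them. The eye field and pigment epithelium factors summed to 2.62 UMIs per 10,000 against 13.4. The melanin list summed to 97.3 against 71.0, led by *Dct* at 57.9. *Ptx3* and *Socs3* had UMIs in all 3 cells, at 20.4 and 3.85 against 0 and 0.135, genes chosen after their values were seen. The whole pigment epithelium list summed to 10.1 in them, led by *Rdh5* at 3.99, against 0.470 in all other kept cells of the library, and *Krt18* stood at 19.1. These cells thus carry cluster label 1 with part of its genes.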
